A study of Mus musculus with 2 samples.

Results

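The transcription factors that give each stretch of the small intestine its identity were compared between mice lacking the fatty acid receptor CD36 and wild-type mice. Members were taken as every probe set annotated to exactly 1 gene symbol among Pdx1, Gata4, Gata6, Onecut2, Cdx1, Cdx2, Hnf4a, Hnf4g and Creb3l3. This gave 21 probe sets for the 9 genes, out of 34958 single-symbol probe sets for 18194 genes and 45101 probe sets in all. No probe set shared a member's symbol with another gene.

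The CD36KO group was a germline knockout of Cd36 on the C57BL/6 background, a deletion carried by every tissue and not by the gut alone. The WT group was wild-type C57BL/6. Age was not stated in the labels. Both were fed chow freely, and the tissue was the proximal section of the whole intestine, gut wall included. Each genotype was 1 array of RNA pooled from 3 animals, so replicate error was not measured. No statistical test was possible, and every value below describes these pools only.

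Position along the gut is held in the epithelium by combinations of factors and not by a single one. PDX1 and ONECUT2 belong to the duodenal end, and GATA4 covers the duodenum and jejunum, where it keeps ileal bile acid genes off. GATA6 is present along the whole length. CDX2 and CDX1 are the caudal homeodomain factors that set intestinal against gastric fate and are graded towards the distal end. HNF4A and HNF4G are paired nuclear receptors that drive brush border and lipid genes in enterocytes. CREB3L3 is a membrane-bound factor, released by cleavage, that controls lipoprotein and lipid genes in enterocytes and hepatocytes.

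Both duodenal factors, Onecut2 and Pdx1, were lower in the CD36KO pool, Onecut2 at least 1.5-fold lower at all 3 of its probe sets and Pdx1 at 1 of 2. Cdx1 was at least 1.5-fold higher at its only probe set and Hnf4a at 1 of 4. Gata4, Gata6, Cdx2, Hnf4g and Creb3l3 had no probe set past 1.5-fold. A probe set was called past 1.5-fold where CD36KO and WT differed by at least 0.58 on the deposited log2 scale, CD36KO minus WT. In all, 4 of the 21 probe sets (19.0%) were called lower, and 2.52% of all single-symbol probe sets were. A further 2 of 21 (9.52%) were called higher, against a background of 4.4%. Of the 4 lower probe sets 3 belong to Onecut2 and are not independent of each other. At 2-fold the counts were 4 lower and 1 higher, with backgrounds of 0.38% and 1.15%. The median difference over the 21 was -0.04 and that over all single-symbol probe sets was -0.0036.

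**Figure D1:**
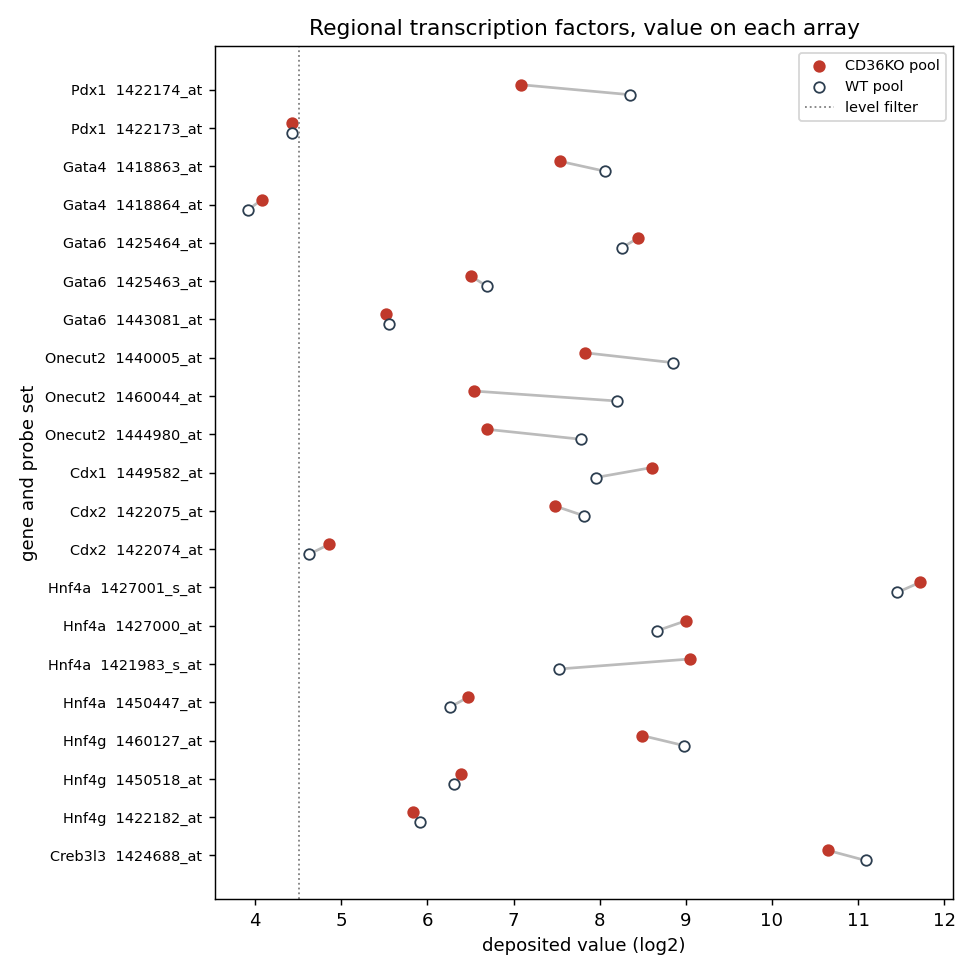
Deposited log2 value (horizontal axis) of each member probe set (vertical axis), with the CD36KO pool as filled points above the open points of the WT pool. The dotted line is the level filter of 4.51. The 3 Onecut2 rows and the upper Pdx1 row have CD36KO to the left of WT, and 1 Hnf4a row has it far to the right.

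A level filter was set at 4.51, the median over all probe sets of the higher of the values on the arrays. Of the 21 probe sets 19 reached it, and the other 2 were the second probe sets of Pdx1 and Gata4. Among the probe sets above this filter 3.46% were called lower and 6.86% called higher. All 6 called probe sets were above it.

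Pdx1, the homeodomain factor of the duodenum, gastric antrum and pancreas, read 7.09 in the CD36KO pool against 8.35 in the WT pool at probe set 1422174_at. The CD36KO value was 2.40-fold lower (log2 difference -1.26), and of the 19482 probe sets above the filter 48 differed as far downwards or further, that one included. The second probe set, 1422173_at, read 4.43 in CD36KO and 4.43 in WT, just under the filter. The filter is a median over probe sets and not a detection limit, so whether this reading is signal or background is not known. The lower Pdx1 value therefore rests on 1 of its 2 probe sets, and the dimmer one did not show it. The promoter window of Pdx1 is shown because Pdx1 was among the called members. It covers 250 bases before to 50 after the transcription start (RefSeq, GRCm38.p6, chr5:147269847-147270146, plus strand), and none of the motifs searched further on was found in it.
Pdx1 promoter: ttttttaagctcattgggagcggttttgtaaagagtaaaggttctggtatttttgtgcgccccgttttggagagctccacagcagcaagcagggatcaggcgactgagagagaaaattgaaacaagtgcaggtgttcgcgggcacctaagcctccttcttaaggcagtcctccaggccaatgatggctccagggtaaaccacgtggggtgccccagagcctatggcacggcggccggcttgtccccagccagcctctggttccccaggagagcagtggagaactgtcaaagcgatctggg

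Pdx1 has Cdx2 as its nearest protein-coding neighbour on chromosome 5, with 0 protein-coding genes between them in RefSeq. The neighbours differed unequally. Cdx2, which keeps the epithelium intestinal rather than gastric, read 7.48 in CD36KO and 7.82 in WT at probe set 1422075_at, a difference of -0.34. Its other probe set, 1422074_at, read 4.86 in CD36KO and 4.63 in WT, a difference of 0.24 in the opposite direction. Neither passed 1.5-fold.

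Onecut2, a cut-homeodomain factor of the proximal small intestine, was the only one of the 7 members with several probe sets that passed 1.5-fold at each of them. Probe set 1460044_at read 6.54 in CD36KO and 8.20 in WT, 3.17-fold lower (-1.66), and 18 of the 19482 probe sets above the filter were as low or lower. Probe set 1444980_at read 6.69 in CD36KO and 7.79 in WT, 2.14-fold lower (-1.10). The remaining one, 1440005_at, read 7.83 in CD36KO and 8.85 in WT, 2.04-fold lower (-1.03). All 3 were well above the filter on both arrays, and all 3 exceeded 2-fold.

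The other gene with a stated segment boundary, Gata4, read 7.54 in CD36KO and 8.06 in WT at probe set 1418863_at. This difference of -0.52 (1.44-fold lower) stopped short of 1.5-fold, and was the lowest among the 15 uncalled member probe sets. Its second probe set, 1418864_at, read 4.08 in CD36KO and 3.92 in WT, under the filter. Gata6, its partner along the whole small intestine, was within 1.5-fold at all 3 probe sets. Probe set 1425464_at read 8.45 in CD36KO and 8.26 in WT, 1425463_at read 6.51 in CD36KO and 6.69 in WT, and 1443081_at read 5.51 in CD36KO and 5.55 in WT. The Gata6 differences were 0.19, -0.18 and -0.04, on both sides of 0.

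Cdx1, the other caudal factor and the one more confined to crypts, had 1 probe set, 1449582_at. It read 8.60 in CD36KO and 7.95 in WT, a value 1.57-fold higher (0.65) and just past the 1.5-fold line. Of the 19482 probe sets above the filter 5.51% were as high or higher.

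Hnf4a, the nuclear receptor shared by enterocytes and hepatocytes, was higher in CD36KO at all 4 probe sets but by very different amounts. Probe set 1421983_s_at read 9.04 in CD36KO and 7.52 in WT, 2.87-fold higher (1.52), and 128 of 19482 probe sets were as high or higher. The other 3 were within 1.5-fold. Probe set 1427001_s_at read 11.72 in CD36KO and 11.46 in WT, 1427000_at read 9.001 in CD36KO and 8.67 in WT, and 1450447_at read 6.47 in CD36KO and 6.26 in WT. Their differences were 0.26, 0.33 and 0.21. The spread of 1.31 between the highest and lowest Hnf4a difference was the widest within any member, followed by 1.26 for Pdx1.

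The annotation used here does not say which transcript each Hnf4a probe set reads. Hnf4a is transcribed from an upstream and a downstream promoter, which start proteins with different amino ends and are both used in the intestine. Both windows are shown because the 4 probe sets of the gene disagree in size. The upstream window (RefSeq, GRCm38.p6, chr2:163506607-163506906, plus strand) held ATCAATA, a core bound by ONECUT factors, from base 192 and AGATAA, the core of GATA factors, from base 199. The downstream window (chr2:163546905-163547204, plus strand) held TAATTA, a homeodomain core of the PDX1 type, from base 86. These matches are descriptions of the letters and not shown to be bound. Capitals mark them.
Hnf4a upstream promoter: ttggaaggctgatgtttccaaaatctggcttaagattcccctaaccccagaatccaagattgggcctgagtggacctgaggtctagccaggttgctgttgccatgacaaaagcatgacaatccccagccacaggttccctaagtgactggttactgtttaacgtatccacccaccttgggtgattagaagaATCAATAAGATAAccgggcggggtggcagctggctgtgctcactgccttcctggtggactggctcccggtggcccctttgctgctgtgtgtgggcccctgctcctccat
Hnf4a downstream promoter: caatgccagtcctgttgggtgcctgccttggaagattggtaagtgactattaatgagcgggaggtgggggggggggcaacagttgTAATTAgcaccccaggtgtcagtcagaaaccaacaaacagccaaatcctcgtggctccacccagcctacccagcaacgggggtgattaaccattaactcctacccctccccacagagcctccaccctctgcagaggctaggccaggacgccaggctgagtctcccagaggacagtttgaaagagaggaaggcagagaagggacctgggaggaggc

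Hnf4g, the paralogue made mainly in the gut, read 8.49 in CD36KO and 8.98 in WT at probe set 1460127_at (-0.48, 1.40-fold lower). Probe set 1450518_at read 6.39 in CD36KO and 6.31 in WT, and 1422182_at read 5.84 in CD36KO and 5.91 in WT. None of the 3 was past 1.5-fold, and they lay on both sides of 0. Creb3l3 read 10.66 in CD36KO and 11.09 in WT at its only probe set, 1424688_at (-0.43, 1.35-fold lower), also within 1.5-fold.

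Where each gene was represented by the probe set with the highest mean, 6 of the 9 factors were lower in CD36KO and 3 higher. The order of the differences was Pdx1 (-1.26), Onecut2 (-1.03), Gata4 (-0.52), Hnf4g (-0.48), Creb3l3 (-0.43), Cdx2 (-0.34), Gata6 (0.19), Hnf4a (0.26) and Cdx1 (0.65). Places in this order cannot be separated without replicates. By the mean over all probe sets of a gene, Onecut2 (-1.26) was below Pdx1 (-0.63), and Hnf4a was at 0.58. Among the 7 factors with several probe sets, 4 had probe sets of both signs (Gata4, Gata6, Cdx2 and Hnf4g).

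**Figure D2:**
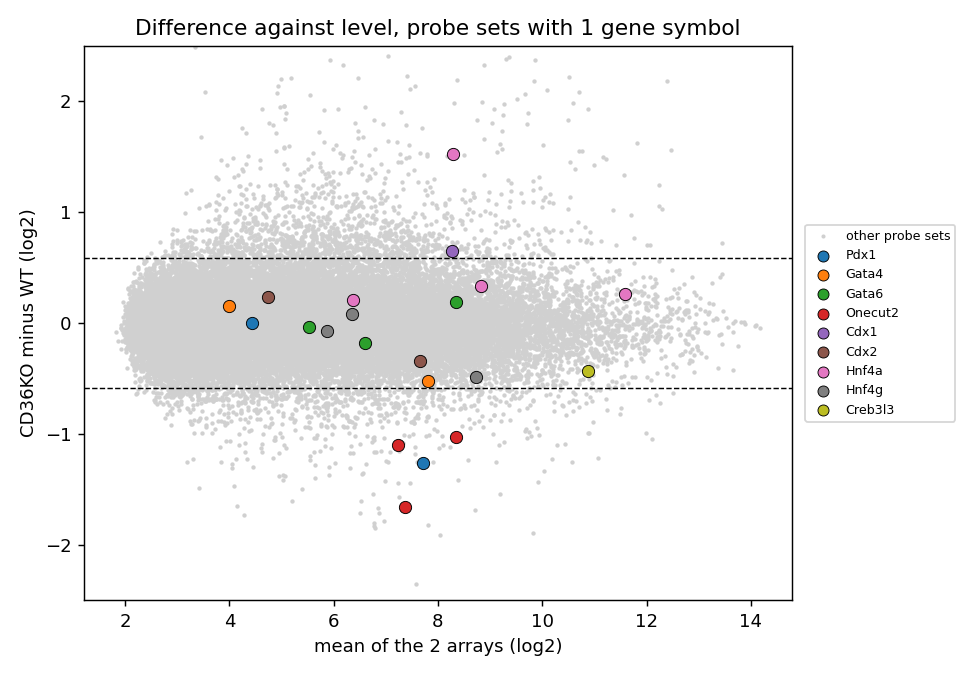
CD36KO minus WT difference (log2, vertical axis) against the mean of both arrays (log2, horizontal axis) for probe sets with 1 gene symbol in grey and the member probe sets in colour. The dashed lines mark 1.5-fold, and 42 probe sets beyond 2.5 in size lie outside the axis. The red Onecut2 points and 1 blue Pdx1 point lie below the lower dashed line, and 1 pink Hnf4a point and the purple Cdx1 point above the upper one.

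Genes listed as proximal, for expression in the duodenum or proximal jejunum, were mostly lower in CD36KO, as Pdx1 and Onecut2 were. Of 28 listed proximal genes above the filter, 11 passed 1.5-fold downwards and 2 upwards, and the median difference was -0.46. Among the 11, Gsta3 (3.80 in CD36KO, 4.75 in WT) reached the filter through WT alone, and its other probe set differed by 0.17. Among all 11981 genes above the filter, 3.31% were called lower and 5.31% higher, with a median of -0.0059. The lowest were the apical calcium channel Trpv6 (5.15 in CD36KO, 6.31 in WT), the iron exporter Slc40a1 (9.74 in CD36KO, 10.84 in WT), the carboxylesterase Ces1f (9.89 in CD36KO, 10.98 in WT) and the glutathione transferase Gstm3 (11.58 in CD36KO, 12.63 in WT). Other probe sets, within 1.5-fold, read -0.53 for Slc40a1 and -0.45 for Cybrd1 (-0.94), which is also among the 11. The proximal genes past 1.5-fold upwards were uridine phosphorylase Upp1 (11.32 in CD36KO, 9.93 in WT) and the phosphate carrier Slc34a2 (10.57 in CD36KO, 9.36 in WT). The list was chosen with earlier results of these data known, so its counts describe and do not test. Where along the gut each listed gene is highest was not measured here. One of the proximal genes, Gip, a duodenal hormone of K cells, in which Pdx1 is also made, read 10.15 in CD36KO and 10.69 in WT, within 1.5-fold.

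Ileal genes were higher in CD36KO. Of 23 listed distal genes above the filter, 16 passed 1.5-fold upwards and 1 downwards, with a median of 1.09. Like the proximal list, the distal one was chosen with earlier results of these data known. The bile acid binding protein Fabp6 read 12.92 in CD36KO and 6.25 in WT, and Fgf15, the ileal hormone that restrains bile acid synthesis, read 7.58 in CD36KO and 3.47 in WT. The WT value of Fgf15 was under the filter, as was that of Slc10a2, so these genes entered the count through CD36KO alone and the size of their difference depends on an unknown background. Plb1 read 8.69 in CD36KO and 4.68 in WT, although its other probe sets differed by 0.14 to 0.90. Tmigd1 read 10.42 in CD36KO and 6.85 in WT. The Paneth cell product Ang4 (13.49 in CD36KO, 11.31 in WT) and the guanylin gene Guca2a (11.74 in CD36KO, 9.66 in WT) completed the 6 with the largest difference. Osr2 (1.93), also among the 16, had another probe set at -0.14, and Clec2h (0.77) had others at -0.06 and 1.09. The lower gene was Nr0b2, a nuclear receptor repressor induced by bile acids, at 6.26 in CD36KO and 7.06 in WT. These segment differences were as wide as 6.67 on the log2 scale, while the widest among the factors was -1.66. A pool that held more tissue from further along the gut and a changed expression at the same position cannot be told apart in these arrays, nor can fewer cells of a type and less RNA per cell.

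The list of genes under GATA4 was divided by direction of control. Of 6 genes that GATA4 keeps off in the jejunum, 5 were at least 1.5-fold higher in CD36KO, namely Fabp6, Fgf15, the bile acid importer Slc10a2 (4.58 in CD36KO, 2.496 in WT), and the subunits of the bile acid exporter, Slc51b (10.37 in CD36KO, 9.28 in WT) and Slc51a (10.74 in CD36KO, 9.66 in WT). All of them belong to the distal list as well, and the WT values of Fgf15 and Slc10a2 were under the filter. The remaining gene, Nr0b2, was lower. Of 9 genes listed as kept on by GATA4, 0 passed 1.5-fold and 7 were below WT, with a median of -0.26; the brush border lactase Lct read 12.26 in CD36KO and 12.74 in WT. Gata4 itself differed by -0.52 at its probe set above the filter.

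HNF4 target genes stayed near WT. Of 19 above the filter 1 was at least 1.5-fold lower and 1 higher, 16 were below WT, and the median was -0.13. The lower one was Apob, the backbone protein of chylomicrons, at 9.20 in CD36KO and 10.63 in WT (another probe set differed by -0.45). The higher one was the brush border metalloprotease Mep1a, at 10.70 in CD36KO and 8.64 in WT (another probe set was higher too). The lipid transfer protein gene Mttp (-0.48), the apolipoproteins Apoc2 (-0.46) and Apoc3 (-0.36) and the acyl-CoA synthetase Acsl5 (-0.28) followed. The microvillar adhesion genes Cdhr2 (-0.12), Cdhr5 (-0.13) and Ush1c (-0.13), given as examples after their values were seen, were all within 1.5-fold. These values stand beside a 2.87-fold higher reading at 1 Hnf4a probe set and differences of 0.21 to 0.33 at its other 3.

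CDX targets were evenly split, with 7 below and 8 above WT, a median of 0.04, 0 of 15 at least 1.5-fold lower and 2 at least 1.5-fold higher. The higher ones were Mep1a, also an HNF4 target, and the goblet cell mucin Muc2 (12.77 in CD36KO, 11.71 in WT). The vitamin D receptor Vdr (-0.50, another probe set 0.07), Lct (-0.48), the drug exporter Abcb1a (-0.42) and the guanylin receptor Gucy2c (-0.41) were the lowest. CREB3L3 targets had a median of -0.14 over 12 genes, with 1 at least 1.5-fold lower and 0 higher. This was the glucose-6-phosphatase gene G6pc, at 8.15 in CD36KO and 9.10 in WT. Cpt1a (0.54, other probe sets -0.42 and -0.23), the fatty acid desaturase Fads2 (0.53, other probe sets -0.02 and 0.57), Apoc2 (-0.46), Cidec (-0.29) and Apoa4 (-0.21) were within 1.5-fold. Creb3l3 itself differed by -0.43.

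**Figure D3:**
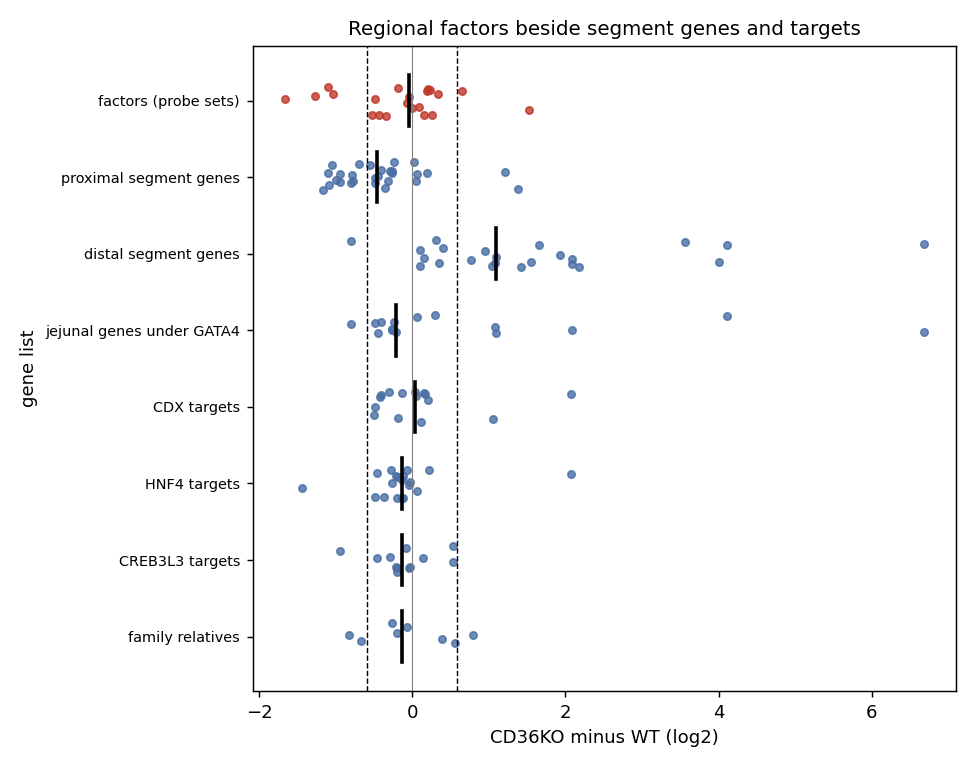
CD36KO minus WT difference (log2, horizontal axis) of the member probe sets in red and of genes above the level filter in each list in blue, with the list median as a black bar and 1.5-fold as dashed lines. The proximal list has its median at -0.46 and the distal list at 1.09, while the medians of the CDX, HNF4 and CREB3L3 targets lie between -0.14 and 0.04.

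The windows of the segment genes were searched on both strands for short cores bound by the families of the factors. The cores were AGATAA for GATA factors, TTTATG for CDX factors, TAATTA for PDX1, CAAAGTC and CAAAGTT for HNF4, ATCAATA for ONECUT factors and CACGTCA for the CREB3 family. RefSeq held 28 windows for 25 proximal genes, 24 windows for 20 distal genes and 32851 windows for 27025 genes in all. The counts that follow are of windows and not of genes. CAAAGTC stood in 6 of 28 proximal and 5 of 24 distal windows, and in 4.44% of all windows. AGATAA stood in 5 of 28 proximal and 6 of 24 distal windows, and in 11.2% of all. TTTATG stood in 6 of 28 proximal and 4 of 24 distal windows, and in 11.9% of all. ATCAATA stood in 2 of 28 proximal and 0 of 24 distal windows, and in 2.05% of all. TAATTA stood in 2 of 28 and 2 of 24 (5.29% of all), CAAAGTT in 3 of 28 and 1 of 24 (3.83% of all), and CACGTCA in 0 of 28 and 1 of 24 (2.01% of all), each with proximal windows first. The HNF4 core CAAAGTC was thus found at 21.4% of proximal and 20.8% of distal windows, lists whose genes were mostly lower and mostly higher in CD36KO.

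The window of Fabp6 is shown as the gene with the largest segment difference. It lies at chr11:43601513-43601812 on the minus strand (RefSeq, GRCm38.p6). It held CACGTCA from base 135, CATAAA, the CDX core read on the other strand, from base 140 and overlapping it, and GACTTTG, the HNF4 core read on the other strand, from base 189. Capitals mark these matches.
Fabp6 promoter: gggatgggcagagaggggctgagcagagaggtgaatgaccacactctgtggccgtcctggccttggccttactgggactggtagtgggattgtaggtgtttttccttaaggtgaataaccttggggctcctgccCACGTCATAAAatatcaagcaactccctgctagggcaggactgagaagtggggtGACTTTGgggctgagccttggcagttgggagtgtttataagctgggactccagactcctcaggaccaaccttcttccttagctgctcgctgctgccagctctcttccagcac

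Relatives of the factors were examined to see whether another family member differed. Of 13, 8 were above the filter, 2 of them at least 1.5-fold lower and 1 at least 1.5-fold higher, with a median of -0.13 that turned to 0.26 when each gene took its least different probe set and to 0.12 with no filter. Zfpm1, the FOG partner of GATA factors, read 7.70 in CD36KO and 8.52 in WT (-0.82), with another probe set at 0.21. Creb3 read 8.64 in CD36KO and 9.31 in WT (-0.67), with other probe sets from -0.23 to 0.34. Creb3l4 was higher, at 4.94 in CD36KO and 4.14 in WT (0.80), its WT value under the filter. Creb3l1 (0.56), Gata5 (0.39), Zfpm2 (-0.07), Gata2 (-0.20) and Creb3l2 (-0.27) were within 1.5-fold. Onecut1 and Onecut3, the paralogues of Onecut2, were under the filter on both arrays, as were Cdx4, Gata1 and Gata3.

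Of 35 other epithelial transcription factors above the filter, 6 passed 1.5-fold upwards and 2 downwards, with a median of 0.07. Among the 6, Klf5 (11.24 in CD36KO, 10.65 in WT) only just reached 1.5-fold, with other probe sets at -0.50 and 0.01. Ehf (0.74) had other probe sets from 0.13 to 1.12. The forkhead factor Foxa1 read 7.53 in CD36KO and 6.42 in WT, and Spdef, a goblet and Paneth cell factor, 7.08 in CD36KO and 6.17 in WT. Nr1h4, the bile acid receptor FXR, read 7.83 in CD36KO and 7.04 in WT, and Atoh1, the secretory lineage factor, 7.49 in CD36KO and 6.66 in WT; these were chosen after their values were seen. The lower ones were Meis2 (5.95 in CD36KO, 6.86 in WT, other probe sets -0.63 to -0.06) and the xenobiotic receptor Nr1i3 (7.03 in CD36KO, 7.92 in WT).

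Some of the factors are also made outside the gut epithelium, so markers of other tissues are given beside them. Enterocyte markers, which carry the labelled tissue, did not differ past 1.5-fold, with 0 of 9 called, and a median of 0.04, and Alpi (-0.37), Epcam (0.33), Apoa4 (-0.21) and Krt20 (0.20) differed most. Their summed linear level was 64066 in CD36KO and 65228 in WT. Pancreas acinar genes were higher in 16 of 18, with a median of 1.56, led by Reg2 (9.73 in CD36KO, 5.96 in WT), Prss3 (6.33 in CD36KO, 3.03 in WT), Pnliprp2 (11.89 in CD36KO, 8.79 in WT) and Cpa1 (10.56 in CD36KO, 8.16 in WT), and their summed linear level was 47727 in CD36KO and 26872 in WT. Zg16, which goblet cells also make, holds a large part of that sum (13.71 in CD36KO, 13.69 in WT), and the WT value of Prss3 was under the filter. The acinar regulators Ptf1a and Rbpjl were under the filter in both pools. Pdx1, which the pancreas also expresses, was lower in the same CD36KO pool, and the part of pancreas RNA in its value was not tested.

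Of 9 islet markers measured, 5 were under the filter, and Ins2 read 5.90 in CD36KO and 5.45 in WT; the summed level was 1829 in CD36KO and 2719 in WT, most of it from Slc2a2, which enterocytes also make (10.60 in CD36KO, 11.30 in WT). Iapp read 4.43 in CD36KO and 4.94 in WT and Gcg 7.24 in CD36KO and 6.19 in WT. Stomach genes differed both ways, with 3 of 7 higher, 2 lower and a median of 0.39. Gkn1 (9.62 in CD36KO, 5.89 in WT), Gkn2 (10.08 in CD36KO, 6.45 in WT) and Tff1 (10.94 in CD36KO, 8.75 in WT) were higher, while Gkn3 (10.33 in CD36KO, 11.09 in WT) and Tff2 (11.69 in CD36KO, 12.39 in WT) were lower; the summed level was 8591 in CD36KO and 8267 in WT. The parietal pump gene Atp4a and gastrin (Gast) were under the filter in both pools. Enteroendocrine markers, cells in which Pdx1 is also found, were below WT in 10 of 11, with 1 at least 1.5-fold lower, Neurog3 (5.18 in CD36KO, 5.88 in WT, another probe set at -0.05), and a median of -0.29; Cck (-0.57), Ghrl (-0.55) and Gip (-0.54) followed. The enteroendocrine hormone genes Pyy (1.55), Gcg (1.05) and Nts (0.95) were higher in CD36KO. They are on the distal list and were not counted among these markers. The part of these tissues and cells in the Pdx1, Onecut2 and Hnf4a values was not tested.

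Hepatocyte markers, relevant to Hnf4a and Creb3l3, had a median of 0.33 over 5 of 9 measured, with 2 at least 1.5-fold lower and 1 higher. Ttr was 2.03-fold lower (other probe sets -1.37 to -0.14), Cyp2e1 1.87-fold higher and Tat within 1.5-fold. Alb was 1.56-fold lower, at 3.90 in CD36KO, under the filter, and 4.54 in WT. Their summed level was 273 in CD36KO and 317.6 in WT. Marker RNAs of the gut wall and of leukocytes were mostly above WT. Of 10 smooth muscle markers 5 passed 1.5-fold upwards, around a median of 0.51 (Myl9 0.91, Tagln and Actg2 0.84, Myh11 0.80, the last with another probe set at 0.14), of 10 fibroblast markers 8 did, around 1.09 (Lum 1.52, Col1a1 1.37, Dcn 1.26, Col3a1 1.16), and of 8 leukocyte markers 5 did, around 0.80 (Cd68 1.71, Lyz2 1.11, Ms4a1 0.96, Kit 0.81). The leukocyte markers Ptprc (0.29), Cd3e (-0.12) and Cd8a (-0.16, other probe sets -0.14 to 0.14) were within 1.5-fold. Other probe sets read 0.06 for Col1a1, -0.08 for Dcn and -0.01 for Kit. The WT values of Cd68 (3.46) and of the fibroblast marker F3 (4.08, 4.99 in CD36KO) were under the filter. Only CD36KO brought these genes into the counts. Adipocyte markers had a median of -0.28 over 4, with Pparg at -1.17. Of 13 housekeeping genes 0 were called, and their median was 0.04.

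**Figure D4:**
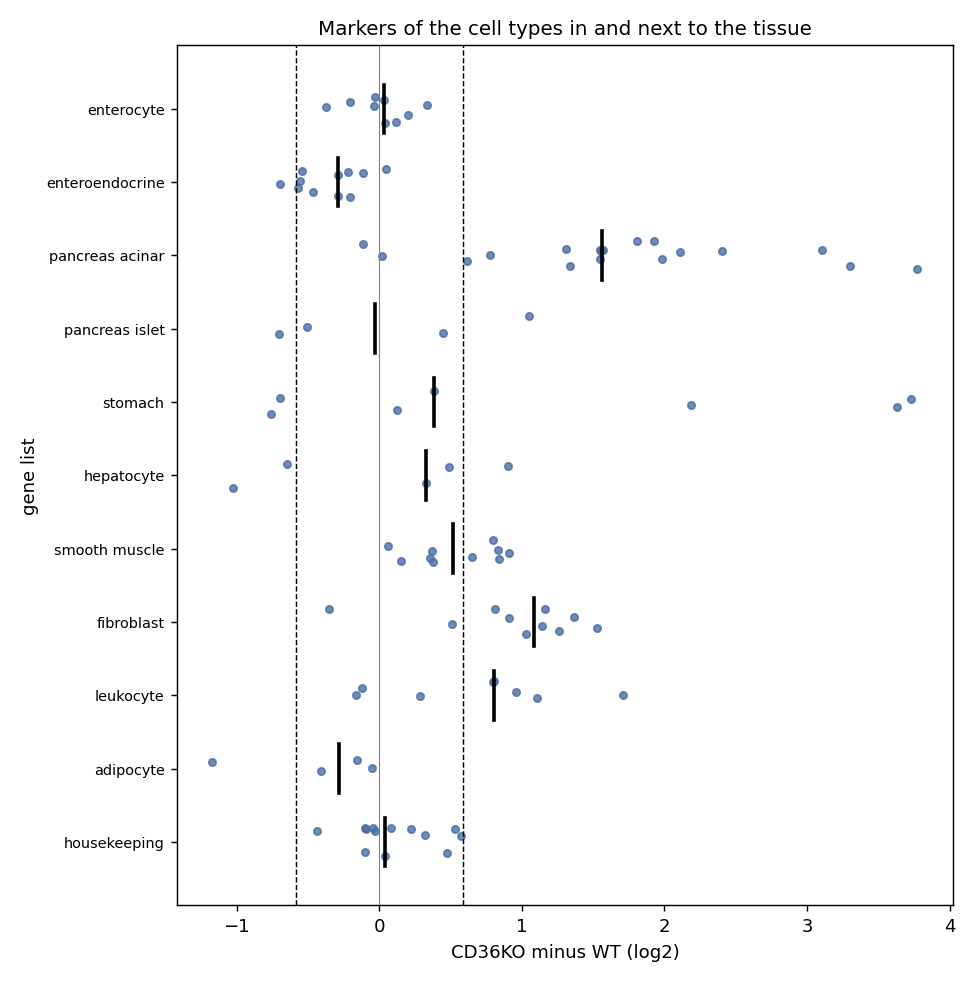
CD36KO minus WT difference (log2, horizontal axis) of markers above the level filter for each cell type (vertical axis), with the median as a black bar and 1.5-fold as dashed lines. Enterocyte and housekeeping markers have medians of 0.04, and pancreas acinar markers one of 1.56.

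The arrays correlated with r = 0.988 over all probe sets, with medians of 4.38 on each. Cd36 was lower in CD36KO at its 3 probe sets, reading 5.87, 6.02 and 3.52 in CD36KO and 7.70, 7.68 and 4.74 in WT. The first 2 stayed above the level filter in CD36KO; their place relative to the deleted part was not known here. The RNA differed in coverage: the signal at the 3' end minus that at the 5' end was 1.34 in CD36KO and 2.28 in WT for beta-actin, and 0.71 in CD36KO and 1.28 in WT for GAPDH (log2). The place of each member probe set along its transcript was not known either, and the part of this difference in the unequal probe sets of Pdx1 and Hnf4a was not tested.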

How the data were processed

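The values are log2 probe set levels deposited by the authors as 1 table for 2 arrays. Per the labels' protocols, RNA of 3 animals per genotype was pooled, and 100 ng of it went into biotinylated cRNA. Summarization and normalization are not stated in the labels, and the log2 base was inferred from the values, which reach 14.19. Depth does not apply, and 1 array per genotype limits the precision of every value.

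CD36KO minus WT differences were computed with no further scaling and called at 1.5-fold. Genes in lists were represented by their probe set with the highest mean and kept at or above 4.51. Named were all probe sets of the members, every relative, and the 4 genes of each list (6 for segment and target lists) with the largest absolute difference. The members and the 21 lists were chosen with earlier results of these data known. Some listed genes were not analysed here. Alternatives were median centring, subtraction of a lowess trend (fraction 0.3), quantile normalization, other probe set rules, filters and a 2-fold threshold. Computation used pandas 2.3.3 and statsmodels 0.14.6 under Python 3.11.15, with matplotlib 3.10.9, and the calculation was tested on simulated data. Promoter windows came from RefSeq (GRCm38.p6), which held them for 4 of the 9 members in the table used.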

Additional observations from a re-analysis of the deposited data

How the results depend on the processing

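All 63 differences of the 21 member probe sets under 3 scalings (median centring, quantile normalization, lowess trend removed) kept their side of the 1.5-fold line, moving by at most 0.041. One difference changed sign, that of the dim Pdx1 probe set near 0. The count of member probe sets called lower was 4 under every scaling, the 2-fold threshold and the level filter. The count called higher was 2, except at 2-fold, where it was 1 because Cdx1 is 1.57-fold higher. The median over the members lay between -0.08 and -0.04. The proximal median ranged from -0.50 to -0.43 and the distal median from 1.08 to 1.26 over all alternatives, the last without genes that are also on marker lists, an alternative added after seeing the data. For the other 19 lists, 127 of 133 medians stayed on the same side of 1.5-fold. The hepatocyte median reversed to -1.02 with the filter at the 75th percentile, which left 1 gene, Ttr. With that filter the stomach median was 2.19, the smooth muscle median 0.65 and the leukocyte median 0.54, and the leukocyte median over all probe sets of a gene was 0.57. The colon median was 0.18 with no filter. Medians near 0 changed sign under some alternatives: that of the relatives (-0.13) was 0.26 with the smallest difference per gene and 0.12 with no filter, that of islet markers (-0.03) reached 0.45 with the mean over probe sets, that of CDX targets ranged from -0.04 to 0.07, and those of enterocyte markers (-0.02, quantile) and hepatocyte markers (-0.0047, no filter) crossed 0. No paired analysis was possible because each genotype has 1 array, and for that reason no replicate could be left out.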

Other observations

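Homeobox cluster genes, which carry position along the body axis mostly in the mesenchyme, were measured as a further readout of position. Of 32 on the array 14 were above the level filter, 3 of them at least 1.5-fold higher in CD36KO and 0 lower, with a median of 0.11. The higher ones were Hoxc8 (5.11 in CD36KO, 3.35 in WT), Hoxb6 (5.74 in CD36KO, 4.99 in WT) and Hoxc6 (5.44 in CD36KO, 4.75 in WT, other probe sets 0.12 to 0.66), followed by Hoxb5 (0.39). The WT value of Hoxc8 was under the filter. Fibroblast and smooth muscle markers were mostly higher too (medians 1.09 and 0.51), and the part of mesenchyme content in the Hox values was not tested. Hoxd10, Hoxd13 and Hoxb13, genes of the hindgut end, were under the filter in both pools.

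Genes typical of the large intestine differed both ways, with 6 of 12 at least 1.5-fold higher, 2 lower and a median of 0.79, which was 0.18 with no filter. Saa1 (10.30 in CD36KO, 3.74 in WT), Retnlb (8.67 in CD36KO, 3.37 in WT), Gsdmc2 (9.90 in CD36KO, 4.80 in WT) and Mptx1 (10.93 in CD36KO, 7.70 in WT) were highest. The WT values of Saa1, Retnlb and Car1, which are 3 of the 6, were under the filter, so they were counted through CD36KO alone. The water channel Aqp8 was lower, at 6.07 in CD36KO and 7.85 in WT. In all, 417 probe sets (0.925%) had exactly the same value on both arrays, and 336 of these (80.6%) were under the level filter. Hoxb3 (5.18 in CD36KO and in WT) was among those above it.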
